A study of Mus musculus with 18 samples.

Results

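The 61 genes described here are named for proteins of the cytosolic ribosome or their paralogues (38 of the large and 23 of the small subunit). These 61 are among 8410 named genes with a value on at least 9 of 18 arrays. They are all genes whose array symbol begins with Rpl or Rps and a digit, together with Rpsa, leaving out the S6 kinase genes. The rule used names and the presence of values, not their size. The study profiled hearts of male and female mice kept as controls, under chronic constant hypoxia (CCH) or under chronic intermittent hypoxia (CIH). Hearts were taken after 1, 2 or 4 weeks, which gives 9 groups with 2 arrays each. Each 2-colour cDNA array set a male heart, labelled with Cy5, against a female heart of the same condition and duration, labelled with Cy3. Per the labels 60 ug of RNA was used. No genotype, strain, age or oxygen level was given, and the labels do not tell whether both arrays of a group used different animals. The p-values and standard errors (SE) therefore measure only the spread between the 2 arrays within groups, which may be technical. Differences among the 9 group means do not enter them.

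Ribosomal proteins fold and stabilise the ribosomal RNAs, and one copy of nearly every protein is needed per ribosome. The large subunit joins amino acids and the small subunit reads the messenger RNA. In the heart, ribosome production is a known part of growth under load. Messenger RNAs of ribosomal proteins begin with a run of pyrimidines (the TOP motif), through which the kinase mTOR sets their translation, and mTOR is restrained when oxygen is low. A cDNA array reads the amount of these messenger RNAs and not the amount of ribosomes.

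Every value below is a log2 ratio of the male over the female heart after centring each array on its median, so a negative value means less signal from the male heart. The labels do not state the direction, which was taken from the Y-linked gene Eif2s3y: one of its spots was 1.36 to 3.54 on the 17 arrays where it had a value, and the other was positive on 16 of 18. All arrays carried the male heart in Cy5, so in a ratio set against 0, sex and dye cannot be told apart. A difference between conditions or durations is free of a constant dye effect, but it does not show in which sex a transcript changed. The values are ratios without signal levels, so the presence of heart-defining transcripts could not be checked by level. Only 4 of 16 heart muscle markers were testable, and 0 of them passed the test against 0. Of 28704 spots, 20489 to 24512 had a value at 1 week, 15802 to 19720 at 2 weeks and 12650 to 17904 at 4 weeks. One array stood apart: control 1 week replicate 1 had a median of -1.32 over the lung genes and of -1.01 over the cell cycle genes. Its partner had -0.14 and 0.14. These medians rest on 2 tested lung genes of 10 listed and on 16 tested cell cycle genes of 22 listed. The title of CIH 1 week replicate 1 disagreed with its source, which names 2 weeks of CCH, and it was kept by its title. The title of control 2 weeks replicate 1 names 2 weeks but carries the code 1A, and this array was kept at 2 weeks. Among the 153 pairs of arrays, which share no common reference, 12 had a correlation below -0.3. In the 9 pairs formed by both arrays of a group, the correlation ran from -0.038 to 0.686.

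Of the 61 genes, 44 had a value on all arrays and 36 were read by more than 1 spot, with 115 spots in all. The test needed a value in each of the 9 groups, which 57 genes had (35 large, 22 small). Rpl13, Rpl17, Rpl31 and Rps4l lacked a whole group and were not tested. Their ratios had medians of -0.11 over 14 arrays, -0.14 over 15, -0.08 over 14 and -0.07 over 16. Another 15 entries (36 spots) carried a symbol that fits the rule together with a further symbol and were not used. Rpl3, Rpl10, Rpl10a, Rpl12, Rpl26, Rps7, Rps16, Rps27 and Rps28 occur only there and are thus not covered. No spot carried Rpl3l or Rpl39 alone.

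Over all arrays, 28 of the 57 tested genes differed from a ratio of 1, and 27 of these were lower in the male channel. The lower genes were 16 of 22 small subunit genes and 11 of 35 large subunit genes, and Rpl4 was the only higher gene. Among all 10272 tested units, 27.7% passed the threshold (limma, Benjamini-Hochberg adjusted p below 0.05), 18.7% below 0 and 8.99% above. The median ratio was -0.31 over the small subunit genes, -0.13 over the large subunit genes and -0.04 over all units. Negative means were found for 21 of 22 small and 29 of 35 large subunit genes, compared with 59.3% of all units. Without control 1 week replicate 1, 23 genes were below and 2 above among those testable, all 23 of them among the 27. Of the 27 genes, 24 were testable without that array, and the share of all units in that fit is not given here. Because heart tissue was measured in bulk, fewer cells of a type and less RNA per cell cannot be told apart.

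**Figure D1:**
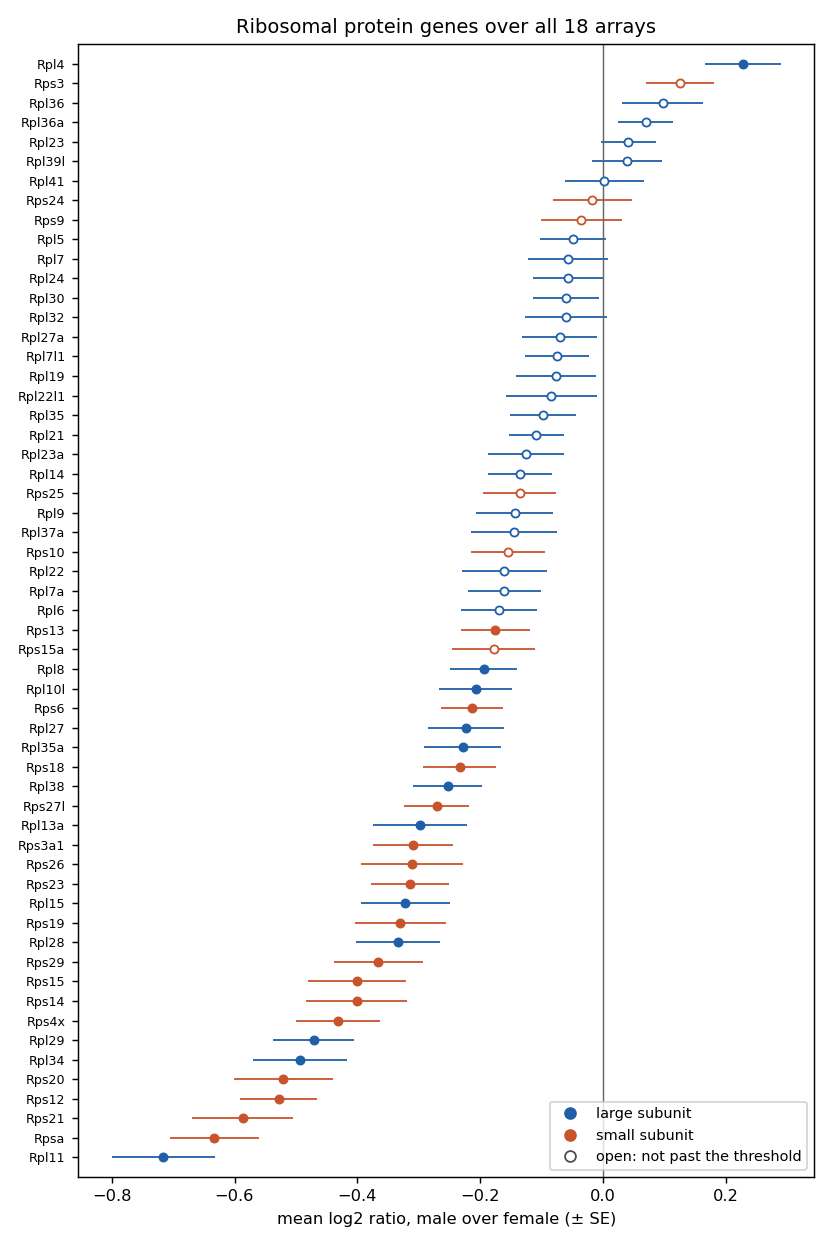
Mean log2 ratio (male over female) of the 57 tested genes over all 18 arrays, with standard errors; blue marks the large and orange the small subunit, and filled points passed the threshold. Rpl11 (-0.72) and Rpsa (-0.63) lie lowest, and Rpl4 (0.23) is the single filled point to the right of 0.

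In the large subunit the lowest gene was Rpl11, whose protein binds the 5S ribosomal RNA with Rpl5 and can hold the p53 inhibitor Mdm2. Rpl11 measured -1.27 and -0.05 at 1 week, -0.21 and 0.33 at 2 weeks and -1.23 and -1.06 at 4 weeks on the control arrays. Under CCH Rpl11 was -0.66 and -0.58 at 1 week, 0.02 and -0.60 at 2 weeks and -1.49 and -1.11 at 4 weeks. Under CIH Rpl11 was -0.80 and -0.95 at 1 week, -0.79 and -0.34 at 2 weeks and -1.36 and -0.76 at 4 weeks. It was below 0 on all but 2 arrays, and the 2 positive values came from 2-week arrays. Its mean was -0.72 ± 0.08 (SE), limma adjusted p = 0.000125, or 1.64-fold lower in the male channel. Its partner Rpl5 had a mean of -0.05 ± 0.05 (SE), limma adjusted p = 0.512.

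Rpl34 encodes another large subunit protein. Rpl34 measured -1.10 and 0.01 at 1 week, -0.10 and 0.24 at 2 weeks and -0.61 and -0.43 at 4 weeks on the control arrays. Under CCH Rpl34 was -0.40 and -0.21 at 1 week, -0.21 and -0.27 at 2 weeks and -1.27 and -0.97 at 4 weeks. Under CIH Rpl34 was -1.32 and -0.77 at 1 week, -0.14 and 0.04 at 2 weeks and -1.002 and -0.36 at 4 weeks. The values at 4 weeks lay below those at 2 weeks without overlap. The mean was -0.49 ± 0.08 (SE), limma adjusted p = 0.000722.

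Rpl29 is also known as a heparan sulfate-binding protein at the cell surface. Rpl29 measured -0.90 and -0.01 at 1 week, -0.06 and -0.13 at 2 weeks and -0.62 and -0.29 at 4 weeks on the control arrays. Under CCH Rpl29 was -0.27 and 0.29 at 1 week, -0.12 and -0.17 at 2 weeks and -1.41 and -1.57 at 4 weeks. Under CIH Rpl29 was -0.37 and -0.72 at 1 week, -0.30 and -0.62 at 2 weeks and -0.62 and -0.59 at 4 weeks. The lowest values, by a wide gap, were those of CCH at 4 weeks, and the only positive one was on CCH 1 week replicate 2. The mean was -0.47 ± 0.07 (SE), limma adjusted p = 0.000373.

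Rpl28, which has no counterpart in yeast, had values on 16 arrays. Rpl28 measured -0.57 at 1 week (1 array), -0.08 and -0.12 at 2 weeks and -0.10 and -0.37 at 4 weeks on the control arrays. Under CCH Rpl28 was -0.39 at 1 week (1 array), -0.08 and -0.16 at 2 weeks and -1.23 and -0.56 at 4 weeks. Under CIH Rpl28 was -0.21 and -0.44 at 1 week, -0.64 and -0.12 at 2 weeks and -0.12 and 0.13 at 4 weeks. CCH 4 weeks replicate 1 was the lowest array, and only CIH 4 weeks replicate 2 was positive. The mean was -0.33 ± 0.07 (SE), limma adjusted p = 0.00448.

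Rpl8 lies close to the peptide-joining centre of the ribosome. Rpl8 measured -0.30 and 0.03 at 1 week, -0.11 and -0.05 at 2 weeks and -0.33 and -0.10 at 4 weeks on the control arrays. Under CCH Rpl8 was -0.21 and 0.07 at 1 week, -0.06 and -0.22 at 2 weeks and -0.91 and -0.42 at 4 weeks. Under CIH Rpl8 was -0.06 and -0.39 at 1 week, -0.23 and -0.01 at 2 weeks and -0.21 and 0.01 at 4 weeks. Both CCH arrays of 4 weeks were the lowest, and 3 arrays were above 0. The mean was -0.19 ± 0.05 (SE), limma adjusted p = 0.0171, and it was -0.05 with adjusted p = 0.547 when each gene was read from its most complete spot (range over all alternatives 0.00553 to 0.547).

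Rpl4 reaches into the tunnel through which the new protein leaves. Rpl4 measured -0.15 and 0.11 at 1 week, -0.36 and 0.08 at 2 weeks and 0.22 and 0.03 at 4 weeks on the control arrays. Under CCH Rpl4 was -0.20 and 0.21 at 1 week, 0.14 and 0.07 at 2 weeks and 0.88 and 0.66 at 4 weeks. Under CIH Rpl4 was 0.49 and 0.06 at 1 week, 0.42 and 0.79 at 2 weeks and 0.62 and 0.04 at 4 weeks. It was positive on all hypoxia arrays but 1, while the controls lay on both sides of 0. The mean was 0.23 ± 0.06 (SE), limma adjusted p = 0.0151, or 1.17-fold higher. This call rested on 1 of 2 spots: their means were -0.06 and 0.52, and from the first alone the mean was -0.06 with adjusted p = 0.543 (range over all alternatives 0.00674 to 0.543).

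In the small subunit the lowest gene was Rpsa, known also as the laminin receptor. Rpsa measured -1.14 and -0.06 at 1 week, -0.18 and 0.06 at 2 weeks and -1.12 and -0.78 at 4 weeks on the control arrays. Under CCH Rpsa was -0.75 and -0.62 at 1 week, 0.12 and -0.25 at 2 weeks and -1.40 and -1.05 at 4 weeks. Under CIH Rpsa was -0.85 and -1.01 at 1 week, -0.66 and -0.21 at 2 weeks and -0.91 and -0.57 at 4 weeks. It was read by 5 spots with means of -0.74, -0.73, -0.71, -0.60 and -0.28, all of one sign. Its mean was -0.63 ± 0.07 (SE), limma adjusted p = 0.000117, or 1.55-fold lower, and it was positive only on 1 control and 1 CCH array, both of 2 weeks.

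Rps21 sits beside Rpsa on the small subunit. Rps21 measured -1.06 and 0.24 at 1 week, -0.48 and 0.05 at 2 weeks and -0.56 and -0.73 at 4 weeks on the control arrays. Under CCH Rps21 was -0.69 and -0.78 at 1 week, -0.04 and -0.05 at 2 weeks and -1.81 and -1.30 at 4 weeks. Under CIH Rps21 was -0.82 and -0.55 at 1 week, -0.30 and -0.34 at 2 weeks and -0.99 and -0.37 at 4 weeks. Both CCH arrays at 4 weeks were the lowest, and 2 control arrays were above 0. The mean was -0.59 ± 0.08 (SE), limma adjusted p = 0.000358.

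Rps12, known from work in flies on competition between cells, had values on 17 arrays. Rps12 measured 0.18 at 1 week (1 array), -0.16 and 0.38 at 2 weeks and -0.56 and -0.65 at 4 weeks on the control arrays. Under CCH Rps12 was -0.42 and -0.45 at 1 week, -0.25 and -0.30 at 2 weeks and -1.28 and -1.45 at 4 weeks. Under CIH Rps12 was -1.48 and -1.27 at 1 week, -0.43 and -0.15 at 2 weeks and -1.05 and -0.35 at 4 weeks. The arrays near -1.3 or below were CCH at 4 weeks and CIH at 1 week, and only 2 control arrays were positive. The mean was -0.53 ± 0.06 (SE), limma adjusted p = 0.00017.

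Rps20 lies in the head of the small subunit. Rps20 measured -1.27 and 0.19 at 1 week, 0.05 and 0.50 at 2 weeks and -0.71 and -0.58 at 4 weeks on the control arrays. Under CCH Rps20 was -0.46 and -0.66 at 1 week, -0.09 and -0.28 at 2 weeks and -1.30 and -1.24 at 4 weeks. Under CIH Rps20 was -1.20 and -1.35 at 1 week, -0.45 and -0.07 at 2 weeks and -0.35 and -0.12 at 4 weeks. The only values above 0 came from 3 control arrays, and the lowest, at -1.20 or below, came from control at 1 week, CCH at 4 weeks and CIH at 1 week. The mean was -0.52 ± 0.08 (SE), limma adjusted p = 0.000735.

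Rps6 is the target of the S6 kinases downstream of mTOR. Rps6 measured -0.46 and -0.13 at 1 week, -0.07 and 0.05 at 2 weeks and -0.08 and -0.33 at 4 weeks on the control arrays. Under CCH Rps6 was -0.06 and 0.17 at 1 week, -0.25 and -0.29 at 2 weeks and -0.45 and -0.32 at 4 weeks. Under CIH Rps6 was -0.13 and -0.31 at 1 week, -0.34 and -0.27 at 2 weeks and -0.51 and -0.05 at 4 weeks. No array was lower than -0.51, and 2 were above 0. The mean was -0.21 ± 0.05 (SE), limma adjusted p = 0.00761, over 3 spots that differed, with means of -0.51, -0.14 and -0.01.

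Rps13 was the small subunit gene closest to 0 among those that passed. Rps13 measured -0.54 and 0.09 at 1 week, -0.03 and 0.05 at 2 weeks and -0.25 and 0.08 at 4 weeks on the control arrays. Under CCH Rps13 was -0.20 and -0.24 at 1 week, -0.11 and -0.08 at 2 weeks and -1.01 and -0.56 at 4 weeks. Under CIH Rps13 was 0.07 and -0.20 at 1 week, 0.03 and 0.00 at 2 weeks and -0.25 and -0.03 at 4 weeks. CCH 4 weeks replicate 1 stood lowest, its partner and control 1 week replicate 1 came next, and the other arrays lay from -0.25 to 0.09. The mean was -0.18 ± 0.06 (SE), limma adjusted p = 0.0319, and the call was lost without any 1 of 10 of the arrays (adjusted p 0.0555 to 0.0744 there, and 0.01 to 0.0782 over all alternatives).

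The other genes that passed below 0 were Rps4x, Rps14, Rps15, Rps29, Rps19, Rps23, Rps26, Rps3a1, Rps27l and Rps18 of the small subunit, and Rpl15, Rpl13a, Rpl38, Rpl35a, Rpl27 and Rpl10l of the large. Their means ran from -0.43 to -0.21. Rps4x, which is X-linked and in mice subject to X inactivation, had a mean of -0.43 ± 0.07 (SE), limma adjusted p = 0.00103. The X-linked Rpl36a, in contrast, had a mean of 0.07 ± 0.04 (SE), limma adjusted p = 0.256. Rps19, the gene most often mutated in Diamond-Blackfan anaemia, had a mean of -0.33 ± 0.07 (SE), limma adjusted p = 0.00615. Rpl13a, which also acts off the ribosome as a translational silencer, had a mean of -0.30 ± 0.08 (SE), limma adjusted p = 0.0114. Rps3, at the messenger RNA entry of the small subunit, did not pass and was the highest small subunit gene at 0.12 ± 0.06 (SE), limma adjusted p = 0.102.

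Some members are paralogues of a core protein. They were taken by symbol, and whether each is part of the ribosome was not tested. Rps27l, a p53-induced relative of Rps27, had a mean of -0.27 ± 0.05 (SE), limma adjusted p = 0.00288. Rpl10l, a retrogene of the X-linked Rpl10 known from testis, had a mean of -0.21 ± 0.06 (SE), limma adjusted p = 0.0204. Rpl22l1, Rpl7l1 and Rpl39l, relatives of Rpl22, Rpl7 and Rpl39, had means of -0.08, -0.08 and 0.04 with adjusted p of 0.406, 0.288 and 0.633. The sign of Rpl39l turned to -0.01 without centring. Ribosomal protein genes have many processed pseudogenes, and whether spots also read such copies was not tested.

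Promoters are shown for 3 of the 4 lowest genes of each subunit over all arrays, beside Rpl4 and Rpl36a, which had the opposite sign over all arrays or between durations. RefSeq (GRCm38.p6) listed a promoter for 48 of the 61 genes. Each line gives 60 bases before and 25 after the first listed start, 5′ to 3′ on the gene's strand, and capitals mark matches on either strand to CCGGAAG, a core recognised by ETS factors such as GABP, ATGGCG, the core of the YY1 motif, or CTTTC, a short pyrimidine run.
Rpl11 (chr4:136053369-136053453, minus strand): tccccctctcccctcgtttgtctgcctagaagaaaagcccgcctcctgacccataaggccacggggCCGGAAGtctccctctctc
Rpl34 (chr3:130730374-130730458, minus strand): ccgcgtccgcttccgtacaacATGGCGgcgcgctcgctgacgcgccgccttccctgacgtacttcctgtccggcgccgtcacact
Rpl28 (chr7:4792905-4792989, plus strand): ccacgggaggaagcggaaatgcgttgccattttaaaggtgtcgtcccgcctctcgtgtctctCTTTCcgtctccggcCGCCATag
Rpsa (chr9:120127706-120127790, plus strand): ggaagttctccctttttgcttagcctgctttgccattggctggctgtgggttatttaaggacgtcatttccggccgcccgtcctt
Rps12 (chr10:23787185-23787269, minus strand): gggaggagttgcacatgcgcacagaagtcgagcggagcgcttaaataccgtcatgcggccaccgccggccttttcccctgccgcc
Rps21 (chr2:180257319-180257403, plus strand): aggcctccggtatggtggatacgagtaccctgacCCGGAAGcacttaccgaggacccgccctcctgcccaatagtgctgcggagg
Rpl4 (chr9:64173327-64173411, plus strand): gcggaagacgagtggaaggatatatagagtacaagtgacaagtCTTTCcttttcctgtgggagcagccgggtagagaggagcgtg
Rpl36a (chrX:134585594-134585678, plus strand): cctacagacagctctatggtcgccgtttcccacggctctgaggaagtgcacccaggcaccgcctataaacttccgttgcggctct
The motifs were chosen after the sequences had been seen, and no motif contains another. Over the whole 300 bases listed, CCGGAAG occurred in 19 of 48 promoters (39.6%) against 9.12% of 27025 promoters of all genes. ATGGCG occurred in 17 of 48 (35.4%) against 9.24%. CTTTC was counted on either strand, so GAAAG, a purine run on the gene's strand, counted as well. Either form occurred within 20 bases of the start in 16 of 48 (33.3%) against 9.91%, and anywhere in the 300 bases in 79.2% against 57.1%. Among the genes lower over all arrays, 10 of 22 held CCGGAAG, compared with 8 of 24 of the tested genes that were not. For ATGGCG these were 10 of 22 and 7 of 24, and for CTTTC near the start 6 of 22 and 9 of 24. A match is a run of letters and not a measured binding site.

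Agreement between spots of one gene was uneven. Among the 36 genes with several spots, the median spread between spot means was 0.13, 8 genes had a spread over 0.3, and in 10 genes the spot means had opposite signs. Rpl34 and Rps18 were read alike by both spots, with means of -0.52 and -0.46, and of -0.26 and -0.21. Rpl35a, which passed the test at -0.23, had spot means of -0.55 and 0.09. Genes read by 1 spot gave medians of -0.33 for the small and -0.16 for the large subunit, and genes read by several gave -0.24 and -0.10, so the order of the subunits was the same in both.

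**Figure D2:**
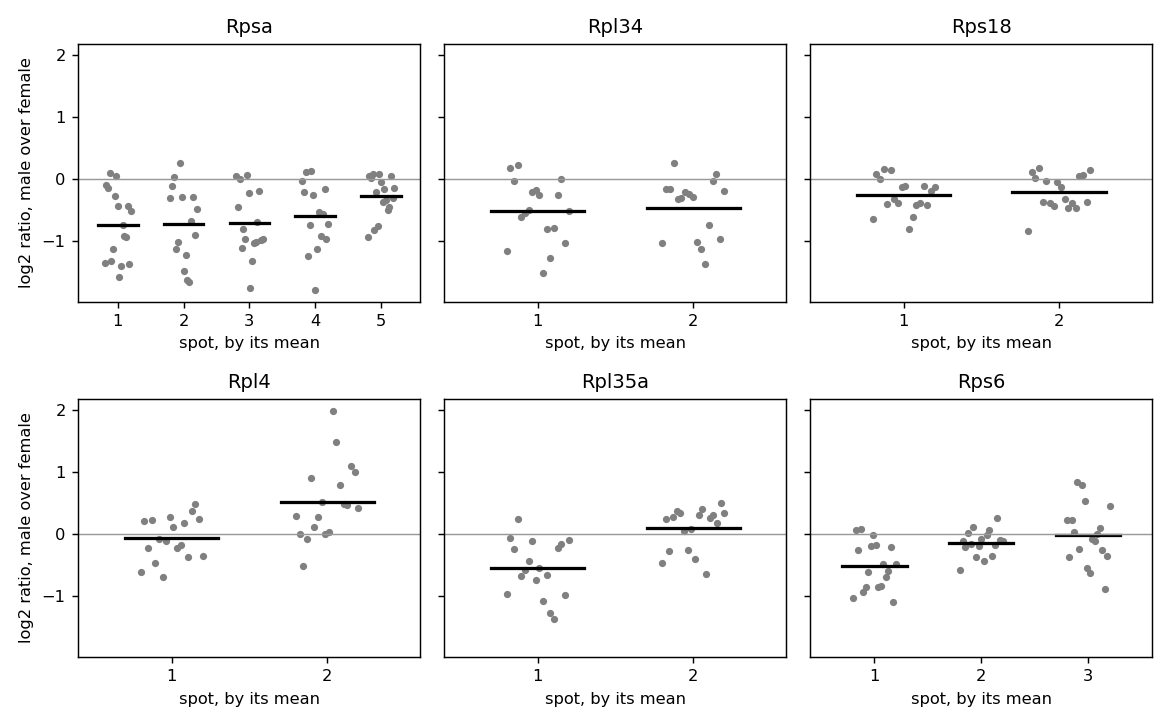
Centred log2 ratios of each spot of 6 genes, one point per array and a bar at the spot's mean. The spots of Rpsa, Rpl34 and Rps18 fall on one side of 0 on average, while those of Rpl4, Rpl35a and Rps6 differ in mean by 0.49 to 0.64.

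The genes moved together from array to array. Over the 44 genes on all arrays, the first principal component held 60.8% of the variance. The median correlation between 2 genes over the 18 arrays was 0.42, with 0.64 within the small subunit and 0.33 within the large. These points share the arrays and their centring, and are given as a description. Rps15a followed the median of the other genes most closely (r = 0.97), then Rps26 (0.93) and Rps18 (0.92), while Rpl4 (-0.19) and Rpl36a (-0.37) were the 2 genes that ran against it.

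**Figure D3:**
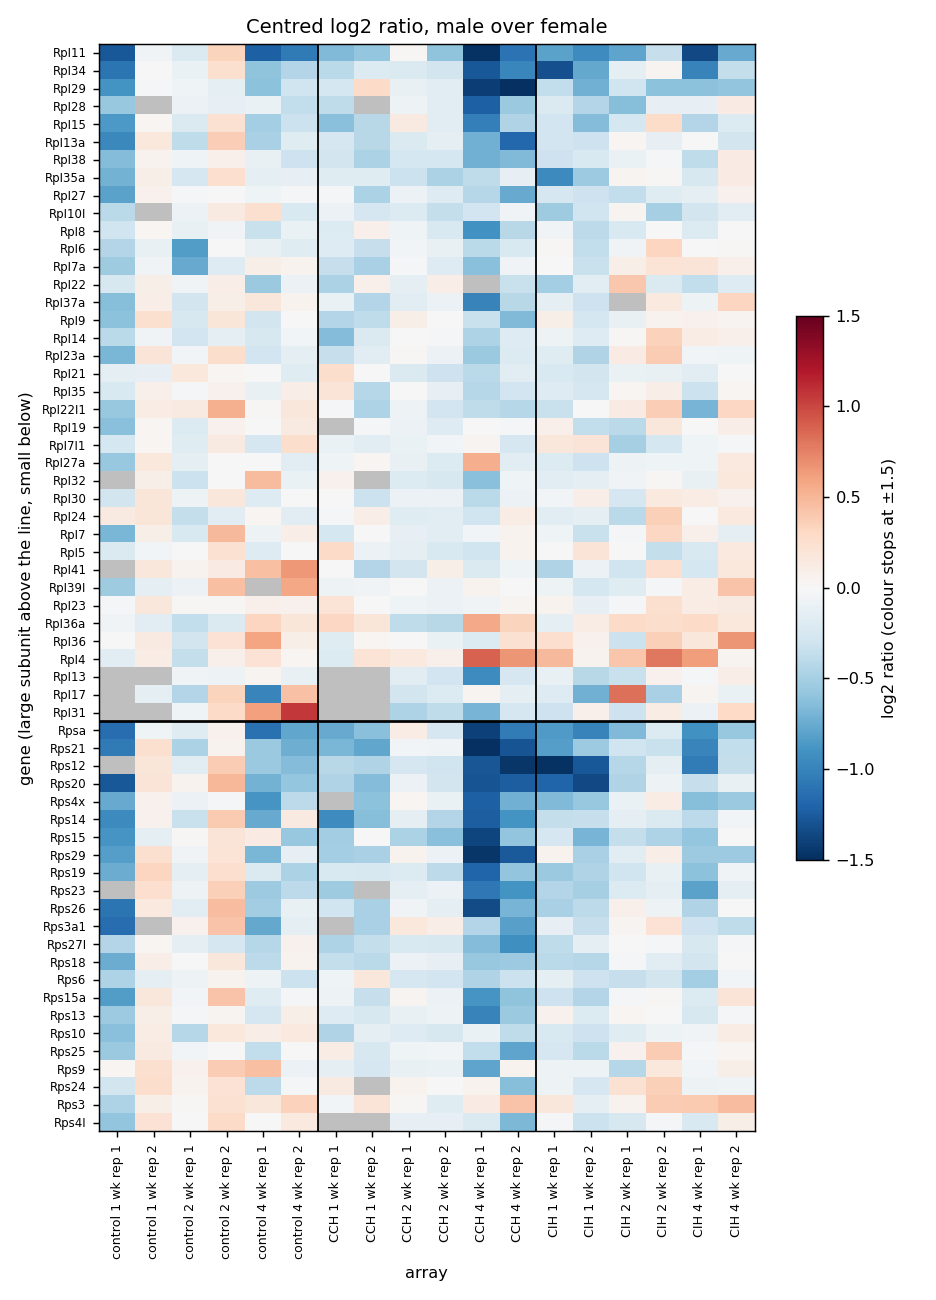
Centred log2 ratio (male over female) of all 61 genes on 18 arrays, grouped into control, CCH and CIH by vertical lines, with the large subunit above and the small below the horizontal line; grey marks no value. The lowest medians over all genes are those of control 1 week replicate 1 (-0.58) and of both CCH arrays at 4 weeks (-0.51 and -0.42), where Rpl4 is red; most genes are also below 0, at smaller values, on other arrays, among them CCH 2 weeks replicate 2 (median -0.17) and CIH 1 week replicate 2 (-0.32).

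Within single conditions, set against 0, no gene passed among the controls, where 0.00974% of all units (1 of 10272) did, and 15 of the 57 genes (26.3%) had an unadjusted p under 0.05 against 9.15% of all units. In CCH, 21 genes were lower (14 small, 7 large), against 7.89% of all units, and 0 were higher, against 2.89%. In CIH, 9 genes were lower (6 small, 3 large), against 8.37%, and Rpl4 was higher, against 3.73%. All 9 genes of CIH were among the 21 of CCH, of which they are 42.9%. The lowest means in CCH were those of Rps21 (-0.78), Rpl11 (-0.74) and Rps14 (-0.71), and in CIH those of Rpl11 (-0.83), Rps12 (-0.79) and Rpsa (-0.70). The CCH count fell to 3 once all arrays were scaled alike (1.64% of all units) and to 12 with quantile normalization (2.97%), and it was 30 without centring (15.5%). For the CCH and CIH counts that follow, the share of all units in the same fit is not given here. It was 10, 10, 9, 3 and 5 without CCH 1 week replicate 1, CCH 1 week replicate 2, CCH 2 weeks replicate 1, CCH 2 weeks replicate 2 and CCH 4 weeks replicate 1 respectively. The CIH count was 4 without CIH 1 week replicate 1, also with that array put in CCH 2 weeks, and 3 without CIH 2 weeks replicate 2 or CIH 4 weeks replicate 1, each of which also ended the call of Rpl4. Without control 1 week replicate 2, 4 genes passed below 0 among the controls, against 0.315% of all units in that fit.

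Whether hypoxia changed the ratio was tested against the controls, averaged over the 3 durations. For CCH no gene passed, and 0% of all units did. The medians of the difference were -0.13 over the large and -0.27 over the small subunit genes, -0.04 over all units, and 50 of 57 genes had a negative difference against 57.1% of all units. The smallest p-values belonged to Rps12 (-0.58, limma adjusted p = 0.699) and Rps23 (-0.52, adjusted p = 0.748) of the small subunit. In the large subunit they were those of Rpl41 (-0.42) and Rpl38 (-0.28), and 7 of the 57 genes (12.3%) had an unadjusted p under 0.05 against 6.32% of all units. In the other direction the large subunit genes with the smallest p-values were Rpl4 (0.31) and Rpl36a (0.15). Those of the small subunit, where 20 of 22 genes had a negative difference, were Rps3a1 (0.12) and Rps3 (0.03). The limma adjusted p of each of these genes was 0.749 or more.

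For CIH the same comparison gave medians near 0, 0.01 over the large and -0.06 over the small subunit genes, with -0.01 over all units. No gene passed, against 0.00974% of all units, and 4 of 57 (7.02%) had an unadjusted p under 0.05 against 12.7% of all units. In the same comparison the red cell genes had a median of -1.20 over 12 genes, with 0 of them past the threshold and 8 at an unadjusted p under 0.05, and their part in the result was not tested. Rps12 came closest. On the control arrays it ran from -0.65 to 0.38 with a median of -0.16, on the CIH arrays from -1.48 to -0.15 with a median of -0.74, and the groups overlapped. The difference was -0.68 ± 0.16 (SE), limma adjusted p = 0.0565, or 1.6-fold lower. The limma adjusted p was 0.0433 without centring, 0.0474 with the most complete spot per gene, 0.0226 without control 2 weeks replicate 1 and 0.0498 without CIH 4 weeks replicate 2, within a range of 0.0226 to 0.428 over all alternatives. Downwards, Rps23 (-0.35) had the next smallest p-value in the small subunit. In the large subunit the smallest were those of Rpl41 (-0.38) and Rpl34 (-0.26). Upwards they were those of Rpl4 (0.42) and Rpl36a (0.21) in the large and of Rps3a1 (0.29) and Rps3 (0.16) in the small subunit. Both comparisons share the control arrays. In both, Rps12, Rps23 and Rpl41 had no value on control 1 week replicate 1, where the median over the ribosomal protein genes was -0.58. Their 1-week control value was that of its partner alone (0.18, 0.25 and 0.17). Rps3a1, named upwards, had a value only on control 1 week replicate 1 (-1.14) and none on its partner. The part of these gaps in the order of the genes was not tested.

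CCH and CIH were compared directly, and 0 of 57 genes passed by limma, against 0.00974% of all units, with 6 (10.5%) at an unadjusted p under 0.05 against 9.28% of all units. The median difference, CCH minus CIH, was -0.17 over the small and -0.08 over the large subunit genes and -0.03 over all units. The smallest p-values downwards were those of Rps27l (-0.34) and Rps14 (-0.47) in the small and of Rpl14 (-0.31) and Rpl7a (-0.33) in the large subunit. Their adjusted p ran from 0.375 to 0.514. Upwards the smallest were those of Rpl27a (0.10) and Rpl10l (0.08) in the large and of Rps12 (0.10) and Rps6 (0.07) in the small subunit. The genes past the threshold against 0 in CCH and not in CIH were therefore not shown to differ between them.

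At single durations no gene passed for either hypoxia, where at most 0.0195% of all units did, and each such contrast rests on 2 arrays against 2. CCH at 4 weeks had the lowest medians of the 6 contrasts, -0.55 over the small and -0.19 over the large subunit genes and -0.06 over all units, with 53 of 57 genes below 0 against 55.4% of all units, and 13 (22.8%) at an unadjusted p under 0.05 against 15.1%. Its smallest p-values in the large subunit were those of Rpl29 (-1.04, limma adjusted p = 0.15) and Rpl37a (-0.82, adjusted p = 0.234). In the small subunit the smallest was that of Rps29 (-0.95, adjusted p = 0.214). Rpl29 was -1.41 and -1.57 on the CCH arrays of 4 weeks and -0.62 and -0.29 on the controls. At 2 weeks of CIH, Rpl4 (0.75) and Rpl36a (0.57) had the smallest p-values above 0, with adjusted p of 0.148 and 0.135. The difference of Rpl36a was -0.01 when read from its most complete spot. At 1 week of CIH, Rps12 was -1.55 and Rps3a1 0.91 relative to controls, each against a single control value, with adjusted p of 0.638 and 1. At 1 week of CCH, Rps6 was 0.35 with adjusted p = 0.711. The interaction of hypoxia with duration called no gene (smallest adjusted p 0.371) and 0% of all units, and 4 of 57 genes (7.02%) had an unadjusted p under 0.05 against 1332 of 10272 units.

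Between durations, over all 3 conditions, the ratios at 4 weeks were lower than at 2 weeks for 10 genes and higher for 1. The lower genes were 7 of 22 small and 3 of 35 large subunit genes. Among all units 7.81% passed, 2.17% lower and 5.64% higher. The median difference was -0.36 over the small and -0.05 over the large subunit genes, against 0.02 over all units. All 10 genes were also among the 27 lower over all arrays, of which they are 37.0%, and both comparisons use the same arrays.

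Rpl11 showed the greatest fall. Its 4-week arrays ran from -1.49 to -0.76 and its 2-week arrays from -0.79 to 0.33, so they overlapped by a narrow margin. The difference was -0.90 ± 0.21 (SE), limma adjusted p = 0.0159, and between group means it was -1.20 in controls, -1.01 in CCH and -0.49 in CIH. Rpsa fell by 0.78 (adjusted p = 0.0159), with -0.89, -1.15 and -0.30 in the 3 conditions. Rps29, a zinc-binding protein of the small subunit's head, differed by -0.78 (adjusted p = 0.0161), and it did so by -0.48, -1.34 and -0.51.

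Rps21 differed by -0.77 (limma adjusted p = 0.0292), with -1.51 in CCH beside -0.43 in controls and -0.36 in CIH. Rps12 differed by -0.74 (adjusted p = 0.00958), with -0.72, -1.09 and -0.41. The direction was thus the same in all 3 conditions for these 5 genes. The others were Rps4x (-0.71), Rpl34 (-0.70), Rps3a1 (-0.64), Rpl29 (-0.62) and Rps23 (-0.59). In Rpl34, Rps3a1 and Rps4x the 6 arrays of 4 weeks lay below the 6 of 2 weeks without overlap, as they did in 1.19% of all units.

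The X-linked Rpl36a was the gene that rose. Its values were -0.37 and -0.22 in controls, -0.38 and -0.42 in CCH and 0.28 and 0.27 in CIH at 2 weeks. At 4 weeks they were 0.32 and 0.19, 0.57 and 0.33, and 0.29 and 0.16. Averaged over its 2 spots, the CIH arrays were as high at 2 weeks as at 4, and controls and CCH changed sign. From its most complete spot alone, CIH minus control at 2 weeks was -0.01, so this contrast with the controls rested on the other spot. The difference was 0.45 ± 0.11 (SE), limma adjusted p = 0.0224, with 0.55 in controls, 0.85 in CCH and -0.05 in CIH. The call was lost with quantile normalization, with scaled arrays and with additive terms. It was also lost without any 1 of control 2 weeks replicate 1, control 4 weeks replicate 1, CCH 2 weeks replicate 1, CCH 2 weeks replicate 2, CCH 4 weeks replicate 1 and CIH 2 weeks replicate 2.

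**Figure D4:**
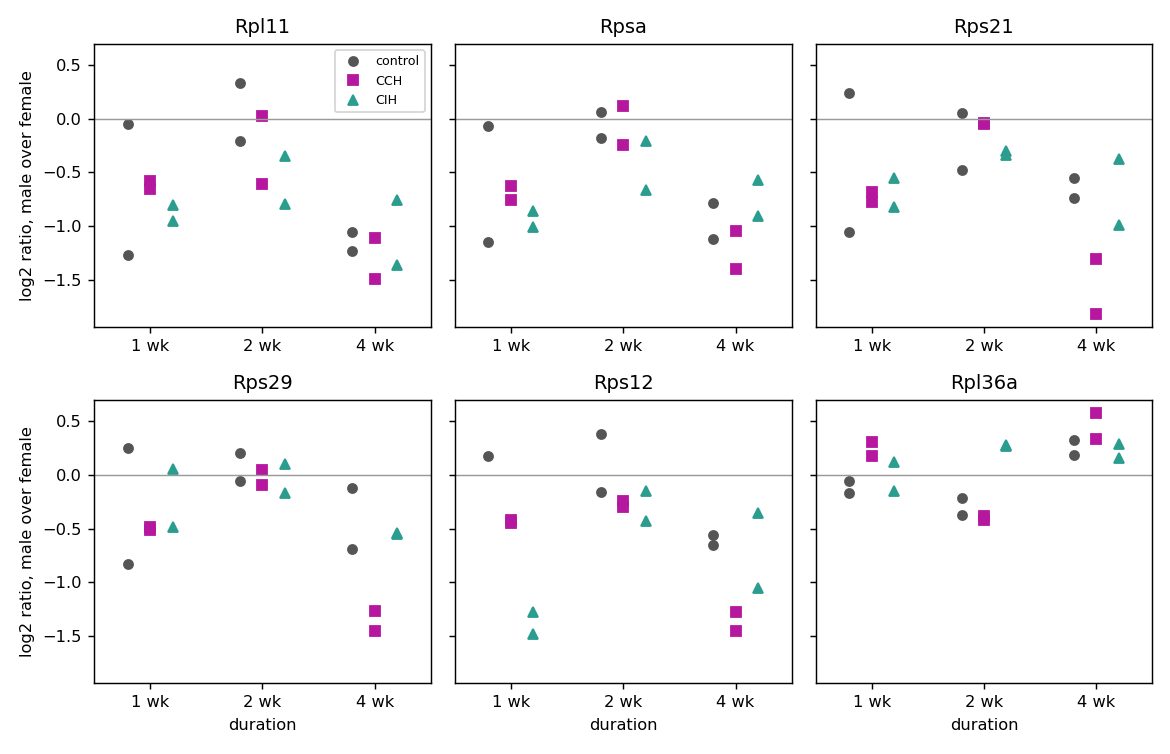
Log2 ratio (male over female) of 6 genes on each array by duration, with control as circles, CCH as squares and CIH as triangles. In Rpl11, Rpsa, Rps21, Rps29 and Rps12 the points of 4 weeks lie lower on average than those of 2 weeks, and those of 1 week spread over both, while Rpl36a is above 0 on all arrays of 4 weeks.

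These calls were lost under another scaling. The standard deviation of all spots was 0.25 to 0.61 on the 2-week arrays and 0.35 to 0.72 on the 4-week arrays, and after scaling every array to the same spread no gene passed in either direction, against 0.107% of all units below and 0.506% above. The count below was 4 with quantile normalization (0.896% of all units) and 13 with one spot per symbol. It was 1 without CCH 2 weeks replicate 1 or CIH 2 weeks replicate 2, 2 without control 4 weeks replicate 1, and 6 without control 2 weeks replicate 2, CCH 2 weeks replicate 2 or CCH 4 weeks replicate 1. For one spot per symbol and for the counts without 1 array, the share of all units is not given here. Spots with a value numbered 15802 to 19720 at 2 weeks and 12650 to 17904 at 4 weeks. Among the red cell genes the median difference from 2 to 4 weeks was 0.78, with 12 of 12 above 0, 1 past the threshold and 8 at an unadjusted p under 0.05. The part of either in the result was not tested.

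From 1 to 2 weeks no gene passed, against 0.00974% of all units, and 12 of 57 (21.1%) had an unadjusted p under 0.05, close to the 21.7% of all units. The medians were 0.29 over the small and 0.15 over the large subunit genes and -0.02 over all units, with 9 of 57 genes below 0 against 52.3% of all units. Upwards the smallest p-values in the small subunit were those of Rps3a1 (0.79, limma adjusted p = 0.0846) and Rps20 (0.73, 0.0928). In the large subunit they were those of Rpl34 (0.56, 0.128) and Rpl15 (0.46, 0.165). Rps3a1 was below 0 on the 4 arrays of 1 week with a value and above 0 on the 6 of 2 weeks, and 0.623% of all units were higher at 2 weeks without overlap. In the red cell genes the median difference was -0.69, with 12 of 12 below 0 and 0 past the threshold, and their part was not tested. Downwards the smallest p-values among the large subunit genes were those of Rpl36a (-0.18) and Rpl24 (-0.17). In the small subunit only 1 of 22 genes was below 0, Rps6 (-0.04). Without control 1 week replicate 2, 12 of 53 testable genes passed above, against 2.94% of all units in the same fit, among them Rps20 (0.98, adjusted p = 0.00899, with a range of 0.00899 to 0.284 over all alternatives), Rpl34 (0.74) and Rps3a1 (0.79).

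From 1 to 4 weeks 0 of 57 genes passed by limma, as did 0% of all units, with 9 genes (15.8%) at an unadjusted p under 0.05 against 9.61% of all units, and medians of -0.08 over the small and 0.05 over the large subunit genes. In the large subunit Rpl29 (-0.52) and Rpl11 (-0.45) had the smallest p-values downwards, and in the small subunit Rps29 (-0.43) and Rps23 (-0.39). Upwards these were Rpl39l (0.48) and Rpl36a (0.27) in the large and Rps3 (0.35) and Rps10 (0.25) in the small subunit. Rpl39l lay between 0.00 and 0.58 on its 5 arrays of 4 weeks and below 0 on all 6 of 1 week, where 0.623% of all units were higher without overlap, with adjusted p = 0.295. The median of the small subunit genes per array averaged -0.35 at 1 week, -0.05 at 2 weeks and -0.43 at 4 weeks.

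The subunits were set side by side on each array by their medians, as a description without a test. The small subunit median was -0.28 ± 0.31 and the large subunit median -0.13 ± 0.16 (SD, n = 18 arrays). The gap, large minus small, was 0.14 ± 0.19 and was positive on 13 of 18 arrays. In controls the gap was 0.05 ± 0.17 and positive on 3 of 6 arrays. In CCH it was 0.24 ± 0.26, positive on 4 of 6, and in CIH 0.14 ± 0.07, positive on 6 of 6.

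The gap was widest in CCH at 4 weeks. There the small subunit medians were -1.01 and -0.70 and the large subunit medians -0.41 and -0.20, with gaps of 0.60 and 0.50. The spread of these arrays was also wide (SD of all spots 0.72 and 0.53), and in units of that SD the small subunit medians were -1.39 and -1.32. Control 1 week replicate 1 reached -1.61 in the same units. Both CCH arrays of 1 week had gaps of 0.20, and those of 2 weeks had -0.01 and -0.05. Over all conditions the gap was 0.13 ± 0.11 at 1 week, -0.01 ± 0.10 at 2 weeks and 0.31 ± 0.21 at 4 weeks (SD, n = 6 arrays each). It was positive on 6 of 6 arrays at 4 weeks and on 2 of 6 at 2 weeks.

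**Figure D5:**
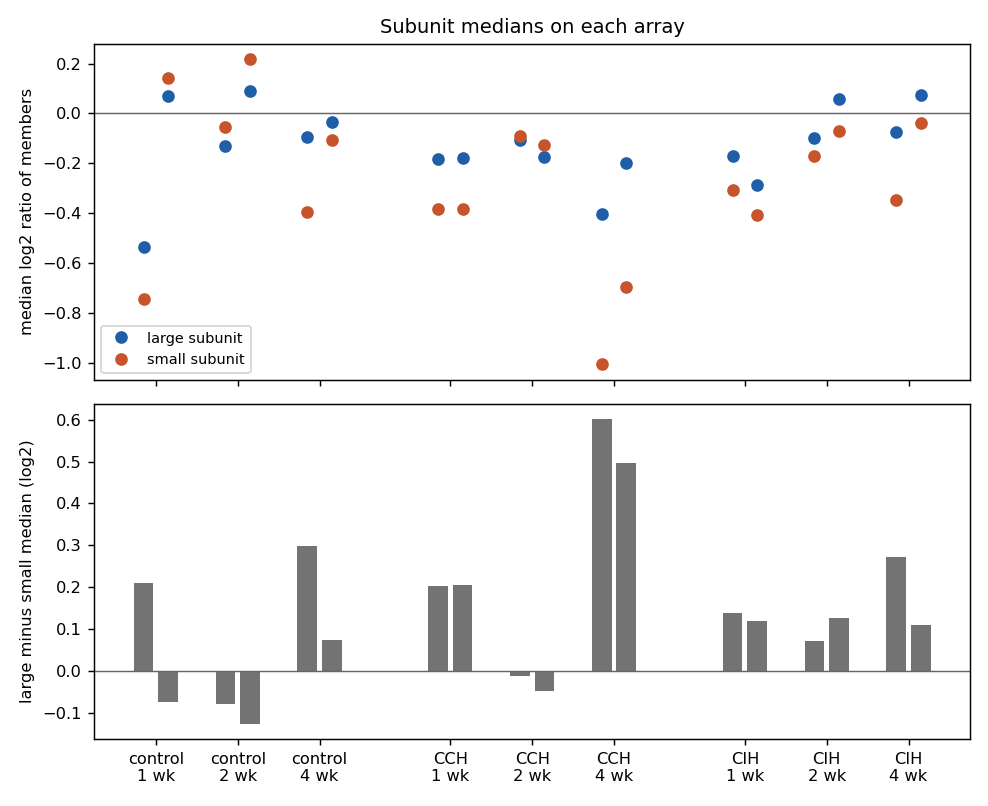
Upper panel, the median log2 ratio (male over female) of the large (blue) and small (orange) subunit genes on each array, with the 2 arrays of a group side by side. Lower panel, bars give the large minus the small median, which reaches 0.60 and 0.50 in CCH at 4 weeks and lies below 0 on the control and CCH arrays of 2 weeks.

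Ribosomal proteins with other symbols did not form one pattern. Of 8 listed, 3 could be tested over all arrays. Rplp1, an acidic protein of the large subunit's stalk, was -0.59 (limma adjusted p = 0.000613), while its partner Rplp2 was 0.12 (0.0951) and Fau, the precursor of Rps30, was -0.05 (0.459). Rplp1 also fell from 2 to 4 weeks, by 0.91 (adjusted p = 0.0194).

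Among 47 tested genes of ribosome biogenesis, which make and process ribosomal RNA, 5 were lower and 6 higher over all arrays, with a median of -0.02. Of 15 tested genes of elongation and other TOP messenger RNAs, 5 were lower and 1 higher. The lower ones were the initiation factor genes Eif3h (-0.47, limma adjusted p = 0.000413) and Eif3e (-0.20), the elongation factor gene Eef1g (-0.16), Btf3 (-0.18) and the filament gene Vim (-0.34), and the importin gene Ipo7 (0.23) was the higher one. Eef2, whose protein moves the ribosome along, was -0.06 with adjusted p = 0.398. Of 24 tested genes of the mTOR and S6 kinase pathway, 5 were lower and 1 higher. The lower ones were Lamtor1 (-0.39) and Lamtor3 (-0.18), which tether mTOR to lysosomes, Akt2 (-0.23), the mTOR inhibitor Tsc2 (-0.21) and Ddit4l (-0.28), and Rps6ka6 (0.15) was higher. Of 61 tested genes of the mitochondrial ribosome, 25 were lower and 3 higher, with a median of -0.13, beside 18.7% lower and 8.99% higher among all units.

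From 2 to 4 weeks, where 2.17% of all units were lower and 5.64% higher, 0 of 47 biogenesis genes fell and 1 rose. Of the TOP genes 1 fell, Eif3h by 0.69 (limma adjusted p = 0.0182), and 1 rose. Of the mTOR genes 2 fell and 0 rose, Lamtor3 being one of them at -0.53, and of the mitochondrial ribosome genes 4 fell and 3 rose. In CCH and in CIH minus control, 0 genes of these 4 lists passed.

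Markers of other cells were read in the same ratios, beside 18.7% of all units lower and 8.99% higher over all arrays. Of 28 leukocyte genes listed, 14 could be tested, and over all arrays 7 were lower and 0 higher, with a median of -0.27. Their median per array was -0.61 to 0.18 in controls, -0.61 to -0.02 in CCH and -0.60 to -0.09 in CIH. Of 12 tested red cell genes 1 was lower over all arrays, with a median of -0.17. In CIH against 0, 8 of the 12 were lower, with a median of -0.89, against 8.37% of all units, and in CCH 0 were, with a median of 0.01. Their medians per array were -0.28 to 0.87 in controls, -1.69 to 0.94 in CCH and -1.97 to 0.16 in CIH. Of 16 tested cell cycle genes 2 were lower and 1 higher, and of 6 skeletal muscle genes 2 were lower. By duration the leukocyte medians were -0.61 to -0.02 at 1 week, -0.60 to 0.18 at 2 weeks and -0.61 to 0.09 at 4 weeks, and the red cell medians were -0.68 to 0.46, -1.97 to 0.37 and -1.17 to 0.94. Whether the shares of these cells have a part in the ribosomal protein ratios was not tested.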

How the data were processed

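The 18 arrays were compared as deposited by the authors. What the authors deposited is 1 log2 ratio per spot and array, per the labels from Cy5 (male) and Cy3 (female); base 2 was read from the values, since the ratios average 1 on each array on the linear scale. Background correction, spot filter and normalization are not given in the sources used here. Every array had its own median subtracted, and all spots carrying a single symbol were averaged per gene. The members, lists and motifs were chosen with earlier results of these data known. Symbols come from the platform annotation, and 60 of 61 identifiers matched RefSeq. Units with a value in every group (6945 genes and 3327 unnamed spots) entered 1 limma fit (version 3.58.1, R 4.3.3) of 9 group means with contrasts and eBayes. Tests were two-sided, at a Benjamini-Hochberg adjusted p of 0.05. The steps were tested on simulated data. The number of arrays limits the precision. Gene names were taken by rule: in each subunit the 4 lowest and 2 highest past the threshold over all arrays, those past it between conditions or durations (5 per direction if over 10), otherwise the 2 with the smallest p per direction and subunit, and a preset group of paralogues, X-linked genes and regulators. Alternatives were quantile normalization, scaling, no centring, complete units, complete spots, one spot per symbol, additive terms, the A or B letter as a block, regrouping and leaving out each array.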

Additional observations from a re-analysis of the deposited data

Results flagged for a closer look

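The large and small subunit medians, their gap and the 12 genes given array by array were searched, within each condition, for 1 array far from the others. Of 45 such sets 3 held one, where chance gives about 1 in 20. The large subunit median of control 1 week replicate 1 was -0.53, below the other 5 control arrays. The large subunit median of CCH 4 weeks replicate 1 was -0.41, below the other CCH arrays. The gap between the large and small subunit medians on CIH 4 weeks replicate 1 was 0.27, above the other CIH arrays.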

How the results depend on the processing

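Over all arrays, 19 to 39 genes were below 0 under the alternatives that kept all arrays (19 of 42 and 21 of 44 testable with complete spots or units) and 23 to 33 without 1 array, while the count above was 0 with scaled arrays or one spot per symbol and 1 to 2 without 1 array. Controls had 1 below with quantile normalization, and 0 to 4 without 1 array. CCH had 12 below with quantile normalization, 3 with scaled arrays, 30 without centring and 27 with CIH 1 week replicate 1 put in CCH 2 weeks, 1 above with that regrouping, and 3 to 23 below without 1 array. CIH had 4 below with that regrouping, 13 without centring and 3 to 12 without 1 array, and its count above was 0 with quantile normalization, scaled arrays, one spot per symbol or regrouping, and 0 to 1 without 1 array. CIH minus control had 1 below without centring or with one spot per symbol, and 0 to 1 without 1 array. From 1 to 2 weeks, 0 to 12 were above without 1 array. From 2 to 4 weeks the count below was 4 with quantile normalization, 0 with scaled arrays, 6 with complete units or complete spots, 7 with regrouping or additive terms, 11 without centring, 13 with one spot per symbol, and 1 to 10 without 1 array; the count above was 0 with quantile normalization, scaled arrays or additive terms, 2 with one spot per symbol, and 0 to 1 without 1 array. Of the 10 genes lower from 2 to 4 weeks, 6 were testable with complete units and all 6 passed. With complete spots 5 of the 10 were testable and all 5 passed. The share of all units called is given above for only some of these fits. A count alone does not tell whether these genes or all units lost or gained calls. The causes were not tested.

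Signs turned for Rpl4 over all arrays (-0.0639, one spot per symbol), Rpl39l over all arrays (-0.0070, no centring), Rpl36a in CIH minus control at 2 weeks (-0.0115, one spot per symbol, and -0.0115, complete spots) and Rps6 from 1 to 2 weeks (0.2963 with one spot per symbol, 0.0005 with regrouping, and -0.0981 to 0.0108 without 1 array). Rps3 in CCH minus control was -0.0189 with quantile normalization, -0.0069 with scaled arrays, -0.0078 without centring, and -0.0656 to 0.1190 without 1 array. In CCH minus CIH, Rps12 was -0.0714 with regrouping and -0.0186 to 0.2126 without 1 array, and without 1 array Rps6 was -0.0083 to 0.1471, Rpl27a -0.0182 to 0.2194 and Rpl10l -0.0097 to 0.1715. Whether the A and B letters pair the arrays could not be told. Over 36 pairs of groups the correlation of the A minus B difference was -0.55 to 0.45, above 0.1 in 15. The titles of CCH 1 week replicate 1 and CCH 2 weeks replicate 1 carry no letter, and both were counted as A. With the letter as a replicate block, 27 genes were below over all arrays, 21 in CCH, 9 in CIH and 11 from 2 to 4 weeks.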
